A study of Drosophila melanogaster with 18 samples.

Results

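The comparison covered 6 Illumina RNA-seq libraries of whole adult Drosophila melanogaster, 3 from dec2P384R flies and 3 from driver control flies, out of 18 libraries in the series. The libraries were chosen by their genotype labels, and all 17972 genes of the deposited table were considered, of which 13418 passed the filter on low values and were tested. Driver control flies carried GR23E10-gal4;+, and dec2P384R flies carried GR23E10-gal4;UAS-dec2P384R. Another genotype, dec2WT (GR23E10-gal4;UAS-dec2WT, 3 Illumina libraries), served for a direct test of mutant against unmutated transgene, and 6 Nanopore libraries of the same driver control and dec2P384R genotypes served as a second readout. Flies of every group lived at 25 °C with 12 h light and 12 h dark, were sampled 3 h after lights on (zeitgeber time 3), and were pooled, about 70 animals to an extract. Age and sex are not given in the sources used here. Each transgene line differs from the control in the transgene, its insertion and the background of its stock together, and these cannot be told apart.

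Dec2 is a mammalian transcriptional repressor of the basic helix-loop-helix class that acts on E-box elements, and the P384R form is known from a family with short natural sleep. Gal4 is a yeast activator that switches on transgenes placed behind UAS sites, while GR23E10 marks a small group of brain neurons that promote sleep. RNA was taken from the whole animal, so genes of the gut, fat body, sensory organs and reproductive tract enter the comparison beside those of the driver's own neurons. In such samples fewer cells of a type and less RNA per cell cannot be told apart. Expression of the UAS constructs was not analysed here.

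The 9 Illumina libraries held between 18057117 and 28293197 reads on genes. The mitochondrial rRNA mt:lrRNA took 6.45% of reads in dec2P384R replicate 2 and 4.37% to 5.31% in the others. Markers of eye, neurons, gut, muscle, testis and accessory gland were present in both groups; the testis gene Mst87F was at 381 to 544 FPKM in the control and 428 to 556 FPKM in dec2P384R. The eggshell genes Cp36 and Vm26Aa of the ovary had no reads in any of the 6 libraries. Values are FPKM, read counts corrected for the length of the gene and the size of the library. Fold changes and their standard errors (SE) are on the log2(FPKM + 0.5) scale, which understates changes of low genes, and every group held 3 libraries. The adjusted p is limma's, with Benjamini-Hochberg adjustment over all tested genes and a threshold of 0.05.

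Of the 13418 genes tested, 376 passed (2.8%), 219 higher in dec2P384R (1.63%) and 157 lower (1.17%). Counts of calls in the gene lists below are to be read against these shares. Their median change was 2.04-fold, 198 differed by at least 2-fold and 48 by at least 4-fold. In all 376 the libraries of the groups did not overlap, which also held for 16% of all genes tested. Called genes had low to middling levels, with a median of 4.65 FPKM among those higher and 5.82 FPKM among those lower, against 9.02 FPKM over all tested genes. In 75 of the called genes, 43 higher and 32 lower, every library of the lower group was under the filter minimum of 0.5 FPKM, so they entered the test only through other libraries and the counts of calls are no support for them. Each of the 6 libraries was left out in turn, and 136 genes, 80 higher and 56 lower, passed in all 6 omissions. The count fell to 179 without driver control replicate 2 and to 192 without driver control replicate 3. Leaving out dec2P384R replicate 2 turned the balance, to 137 higher and 172 lower.

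**Figure D1:**
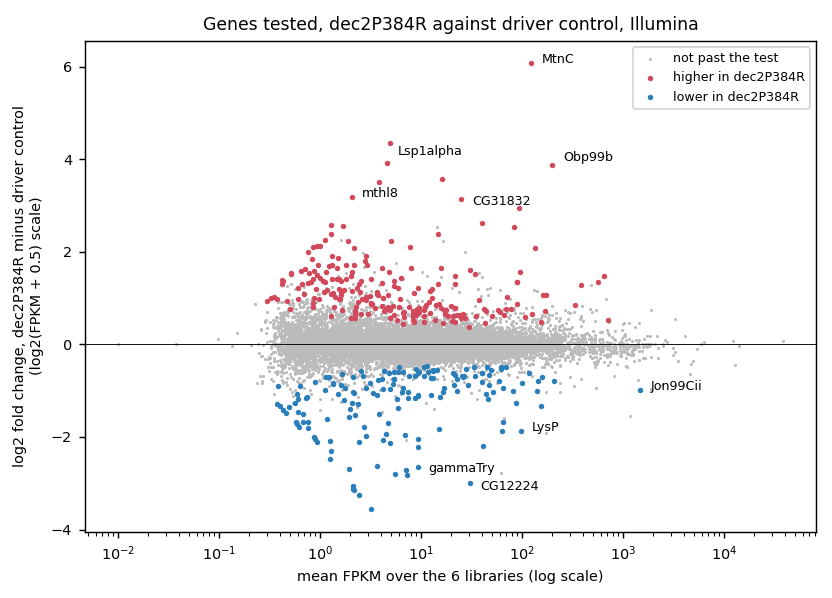
Log2 fold change of dec2P384R over the driver control (y axis) against mean FPKM of the 6 libraries (x axis, log scale) for the 13418 tested genes. Red points mark the 219 genes higher and blue points the 157 genes lower in dec2P384R; MtnC stands apart at a log2 fold change of 6.08.

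Metallothioneins are small cysteine-rich proteins that bind copper, zinc and cadmium, and 3 of the 6 measured genes rose while 3 did not pass. MtnC (FBgn0038790) was at 3.99, 2.31 and 2.67 FPKM in the control libraries and at 175, 348.4 and 201 FPKM in dec2P384R, a rise of 67.5-fold (log2 6.08 ± 0.33 SE, limma adjusted p = 5.4e-06). Every dec2P384R library lay far above every control library. The dec2WT libraries were also high, at 207, 179 and 91.6 FPKM. MtnB (FBgn0002869, chromosome 3R, 20503102 to 20503746) was at 12, 7.49 and 13.6 FPKM in the control and 24.3, 25.5 and 46 FPKM in dec2P384R (2.77-fold, log2 1.47 ± 0.25 SE, limma adjusted p = 0.0105). MtnD (FBgn0053192) was at 45.5, 46.3 and 55.4 FPKM against 85.4, 135 and 172 FPKM (2.55-fold, limma adjusted p = 0.00749). The groups did not overlap for either gene. MtnA, MtnE and CG43222 had log2 fold changes of 0.55, 0.76 and 0.17 and did not pass. DESeq2 on recovered reads gave MtnA an adjusted p of 0.03. The 16 genes of metal transport and storage had 0 calls in limma, edgeR and DESeq2, 2 genes at an unadjusted limma p under 0.05, and a median log2 fold change of −0.06.

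Larval serum proteins are amino acid stores made by the fat body, and the 3 of 6 listed genes that passed the filter all rose. Lsp1alpha was at 0.0531, 0 and 0.119 FPKM in the control and at 3.55, 9.21 and 14.8 FPKM in dec2P384R (15.2-fold, log2 3.92 ± 0.64 SE, limma adjusted p = 0.00772). Lsp1beta was at 27.3, 6.99 and 38.7 FPKM against 120, 124 and 249 FPKM, and Lsp2 at 9.35, 4.11 and 25.1 FPKM against 50.1, 54.1 and 95.8 FPKM. Driver control replicate 2 was the lowest library for all 3 genes, and no control library reached the range of dec2P384R. Lsp2 lost its call in 5 of the 6 omissions (highest limma adjusted p 0.104, leaving out dec2P384R replicate 3) and when low genes were not filtered (0.0586). Lsp1beta lost its own without replicate 2 or 3 of dec2P384R (up to 0.0743). Lsp1gamma, Fbp1 and Fbp2 were under 0.7 FPKM in every library and were not tested. Lsp1alpha passed the filter only through libraries where it was high, so nothing is read from the count of 3.

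The receptor gene mthl8, of the methuselah-like family of G protein-coupled receptors, was without a read in all 3 control libraries and had 350, 297 and 205 reads in dec2P384R (4.36, 4.71 and 3.21 FPKM). It was at least 109-fold higher against a floor of 3 counts per library (limma adjusted p = 3.39e-06). The dec2WT libraries held 3.79, 3.48 and 3.39 FPKM. The gene passed the filter only through the dec2P384R and dec2WT libraries; the other 10 tested methuselah receptors did not pass the test. With the replicate number as a block mthl3 passed as well, lower in dec2P384R (log2 fold change −0.64, limma adjusted p = 0.0475). Outside the naming rule and chosen after its values were seen, the sodium channel family gene ppk24 was nearly lost, at 2.78, 1.86 and 2.81 FPKM in the control and 0.0714, 0.0303 and 0 FPKM in dec2P384R (limma adjusted p = 6.65e-05). Every dec2P384R library of ppk24 was under the filter minimum of 0.5 FPKM. The gene entered the test only through other libraries, so nothing is read from its call.

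Digestive enzymes of the gut fell in part. Among 15 trypsin genes 4 were called lower and 1 higher, 10 did not pass, and the median log2 fold change was −0.43, against 0.00 over all genes tested. The 4 that fell, gammaTry, CG30031, CG30025 and deltaTry, are consecutive on chromosome 2R between 11349061 and 11356128. gammaTry was at 14, 19.7 and 15.2 FPKM in the control and at 1.52, 3.07 and 2.11 FPKM in dec2P384R (6.24-fold lower, log2 −2.64 ± 0.20 SE, limma adjusted p = 4.44e-05). CG30025 fell 7.09-fold, CG30031 4.68-fold and deltaTry 3.89-fold, and the groups did not overlap for any of the 4. Near-identical copies can share reads here, so the values of single genes in this cluster are uncertain. On Nanopore the list of 15 trypsins had a median of −0.07, with the same 4 called lower and 0 higher in edgeR. Try29F, a trypsin gene elsewhere on chromosome 2L, rose 4.32-fold, from 3.09, 1.97 and 2.83 FPKM to 11.2, 16.1 and 11.8 FPKM (limma adjusted p = 0.000114); it overlaps CG18661 by 8 bases.

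Of 15 Jonah genes, chymotrypsin-like proteases of the midgut, 3 fell, 12 did not pass, and the list's median was −0.89 on the log2 scale. Jon99Fi was at 73.8, 116 and 106 FPKM in the control and 20.3, 34.4 and 25.9 FPKM in dec2P384R (3.64-fold lower, limma adjusted p = 0.00162). Jon65Ai fell 2.39-fold and Jon99Cii 1.99-fold. Of the 15 Jonah genes 9 were lower without overlap, against 7.83% of all tested genes. On Nanopore the list's median was −0.11 over 14 genes, with 0 calls in edgeR. There Jon99Fi, Jon65Ai and Jon99Cii had log2 fold changes of −1.38, −0.91 and −1.02. Jon65Ai lost its call without driver control replicate 2 or 3 (limma adjusted p up to 0.058), and Jon99Cii in 4 of the 6 omissions (up to 0.0966, without driver control replicate 2). With the replicate block Jon44E also passed, with a log2 fold change of −0.91 (limma adjusted p = 0.00108), and so did yip7 among 5 other gut serine proteases (−0.97, 0.033).

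Lysozymes, which break down bacterial cell walls and are made largely in the fly gut, moved in both directions. LysP fell 3.67-fold, from 156.3, 163 and 137 FPKM to 52, 49.4 and 26.5 FPKM (log2 −1.88 ± 0.24 SE, limma adjusted p = 0.00188). LysX rose 4.22-fold, from 0.907, 0.323 and 0.397 FPKM to 3.92, 3.07 and 4.46 FPKM (limma adjusted p = 0.00248), and the other 4 lysozyme genes did not pass. LysP lies within mwh on the opposite strand and has close paralogs, so its value is uncertain. Among 9 gut lipases CG6296 fell 4.35-fold (limma adjusted p = 0.0147), with the call lost in 4 of the 6 omissions (up to 0.0782, without driver control replicate 2). The replicate block added CG6295, lower (limma adjusted p = 0.00661), and Lip3, higher (0.029). None of the 14 maltases and amylases passed in limma or edgeR, DESeq2 called 1, and 6 had an unadjusted limma p under 0.05; Amyrel, the one furthest up, had a log2 fold change of 2.24 (limma adjusted p = 0.21). The replicate block brought Mal-B2 past the test (log2 fold change 0.47, 0.0178).

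**Figure D2:**
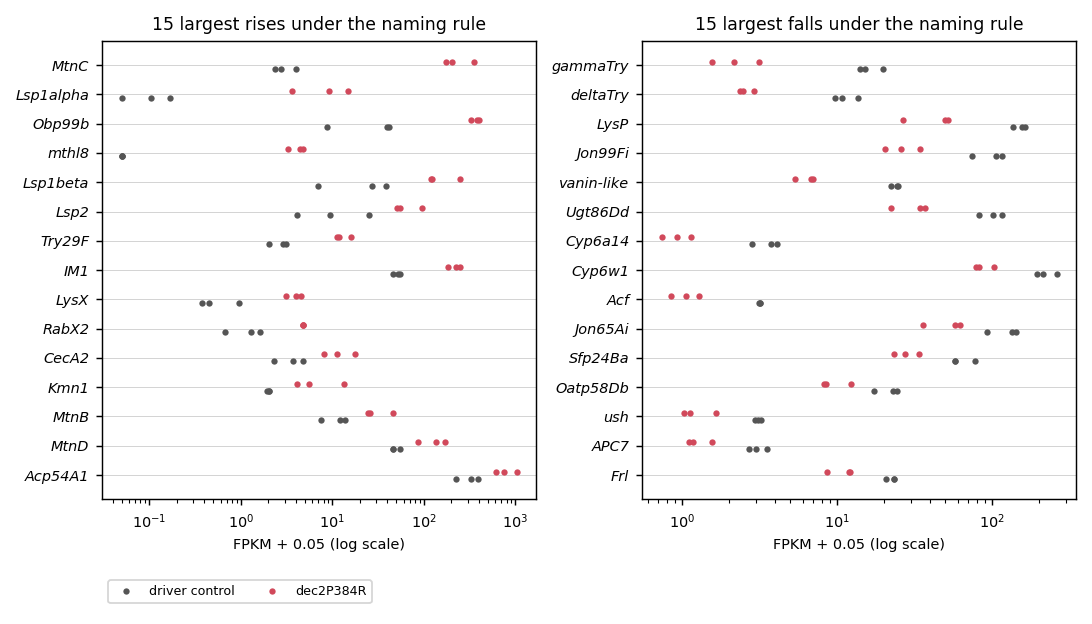
FPKM + 0.05 (x axis, log scale) in each driver control library (grey) and each dec2P384R library (red) for the 15 largest rises and 15 largest falls under the naming rule. Each point is 1 library, and the groups do not overlap in any of these genes.

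Genes of antibacterial defence rose in a few members. IM1, a Bomanin peptide induced through the Toll pathway, was at 52.7, 46.2 and 54.3 FPKM in the control and 250, 226 and 184 FPKM in dec2P384R (4.26-fold, log2 2.09 ± 0.17 SE, limma adjusted p = 8.8e-05). Of 12 Bomanins IM1 and CG15067 rose and 10 did not pass. Of 18 antimicrobial peptide genes the cecropins CecA2 (3.13-fold, limma adjusted p = 0.0101) and CecA1 (1.58-fold, 0.0357) rose and 16 did not pass. CecA2 was at 4.71, 2.26 and 3.66 FPKM against 8.15, 17.5 and 11.3 FPKM, and these neighbouring near-identical genes can share reads. The median of the 18 was 0.78 on the log2 scale, with AttC at 1.99 (limma adjusted p = 0.22) and Mtk at 1.46 (0.2). CecA1 lost its call in 4 and CG15067 in 5 of the 6 omissions (highest limma adjusted p 0.158, for CG15067 without driver control replicate 2). The replicate block added Drsl4, lower (0.0397), and CG15065, higher (0.0149).

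PGRP-SC2, a peptidoglycan recognition protein that degrades bacterial cell wall fragments, rose 2.08-fold, from 94.2, 94.7 and 124 FPKM to 180, 287 and 196 FPKM (limma adjusted p = 0.00895). The other 10 tested genes of this family did not pass. None of the 15 Toll and Imd signalling genes passed in limma, edgeR or DESeq2, 1 had an unadjusted limma p under 0.05, and their median log2 fold change was −0.11. The 4 tested Turandot stress peptides were at log2 fold changes of 0.61 to 1.53, with 0 calls in limma and edgeR, 1 in DESeq2 and 2 at an unadjusted limma p under 0.05. Among 8 hemocyte genes NimC1, a phagocytosis receptor of plasmatocytes, fell 1.54-fold, with the call lost in 4 of the 6 omissions (highest limma adjusted p 0.111, without driver control replicate 2). Hml, a defining hemocyte gene, was at 6.77 to 9.64 FPKM in the control and 6.49 to 11.8 FPKM in dec2P384R.

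Odorant-binding proteins are secreted carriers of hydrophobic ligands, known from antennae and other tissues. Of 38 tested genes 6 rose, 1 fell and 31 did not pass (18.4% called, against 2.8% of all genes tested). Obp99b was at 41.3, 8.78 and 39.8 FPKM in the control and 398, 328 and 380 FPKM in dec2P384R (14.7-fold, log2 3.88 ± 0.52 SE, limma adjusted p = 0.00264). Driver control replicate 2 was again the lowest, and all dec2P384R libraries lay above all control libraries. Obp56d rose 2.43-fold, from 236, 203 and 238 FPKM to 506, 586 and 558 FPKM (limma adjusted p = 0.000154). Obp83g (2.23-fold) and Obp56i (1.62-fold) rose as well. Named after their values were seen, Obp99a rose, with a log2 fold change of 0.70, and Obp58c had 0 reads in every control library and 10 to 13 in each dec2P384R library, at least 4.39-fold higher against 3 counts per library. Obp58c passed the filter only through the dec2P384R and dec2WT libraries, so nothing is read from its place among the 6. Obp56a, also named after its values were seen, fell, with a log2 fold change of −1.02 (limma adjusted p = 0.031). The list's median was −0.07. Of 32 tested chemosensory receptors Or67b passed (3.1%, against 2.8% of all genes tested), lower by 0.90 on the log2 scale. Only its control libraries reached the filter minimum, so the gene was tested through the group where it was high and nothing is read from its call. It lost its call without any 1 of the dec2P384R libraries (limma adjusted p up to 0.0985, without replicate 1), with a pseudocount of 0.1 (0.087), with the 6 libraries alone (0.0651) and with the replicate block (0.0535), under which Gr98a passed (0.0129).

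Cytochrome P450s are enzymes that oxidize foreign compounds and hormones. Among 78 tested, 7 were called lower and 1 higher (10.3%, against 2.8% of all genes tested), and the list median was −0.03. Cyp6w1 was at 261, 214 and 194 FPKM in the control and at 78.2, 103 and 82.6 FPKM in dec2P384R (2.53-fold lower, limma adjusted p = 0.00377). Cyp6a14 fell 2.87-fold, Cyp6a20 2.03-fold, Cyp6a8 2.01-fold, Cyp6a2 1.60-fold and Cyp4p2 1.59-fold. The P450 that rose, Cyp4p1, named after its values were seen, passed narrowly (log2 fold change 0.46, limma adjusted p = 0.0499). The libraries of the groups did not overlap for any of these. Cyp6a8 lost its call without driver control replicate 2 (limma adjusted p = 0.0728), and Cyp6a2 in 4 of the 6 omissions (up to 0.0835, without driver control replicate 2). The replicate block added Cyp6a9, Cyp4p3 and Cyp9f3, higher, and Cyp6t1, lower (limma adjusted p of 0.035, 0.0206, 0.00651 and 0.0263).

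UDP-glycosyltransferases attach sugars to foreign and internal compounds, and 3 of 27 fell while 1 rose. CG17322 fell from 14.4, 15.6 and 15.6 FPKM to 3.53, 3.24 and 3.15 FPKM (4.12-fold, limma adjusted p = 3.39e-06), and Ugt86Dd from 101, 82.2 and 115 FPKM to 22.3, 34.2 and 36.8 FPKM (3.21-fold, 0.00215). CG17323 (1.53-fold lower) and CG15661 (1.47-fold higher) each lost the call in 5 of the 6 omissions (highest limma adjusted p 0.185, for CG17323 without driver control replicate 2). Of 35 glutathione S-transferases 3 neighbouring paralogs rose (8.57%, against 2.8% of all genes tested). GstD1 rose 1.45-fold, GstD3 1.72-fold and GstD7 1.65-fold. Their calls were lost in 4, 5 and 6 of the 6 omissions (highest limma adjusted p 0.152, for GstD1 without driver control replicate 2). All 3 also lost them without the filter on low genes (0.0515 to 0.068) and with the 6 libraries alone (0.0547 to 0.141), and GstD7 in edgeR (adjusted p = 0.0961) and DESeq2 (0.139) on recovered reads. The anion transporter gene Oatp58Db fell 2.19-fold, from 17.3, 24.3 and 22.9 FPKM to 8.43, 12.2 and 8.19 FPKM (limma adjusted p = 0.00397), with the other 7 of its list not past. With the replicate block Oatp58Dc fell too (0.039), and Irk3 did among 4 Malpighian tubule genes (0.0431).

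**Figure D3:**
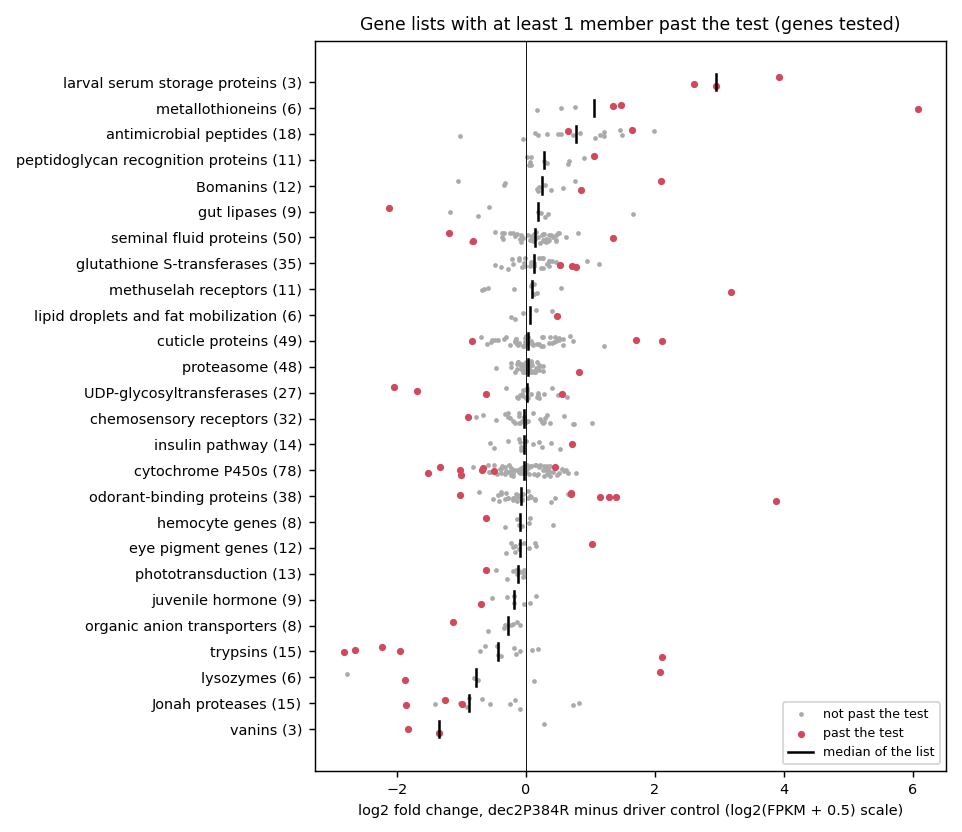
Log2 fold change of dec2P384R over the driver control (x axis) for the tested members of each gene list that held at least 1 called gene (rows, number tested in brackets). Red points passed the test, grey points did not, and black bars are list medians; MtnC is the point at 6.08.

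Of 3 vanins, relatives of pantetheinases, vanin-like fell from 22.2, 24.2 and 24.6 FPKM to 5.3, 6.94 and 6.75 FPKM (3.56-fold, limma adjusted p = 6.05e-05) and CG32751 fell 2.54-fold, while CG32750 had a log2 fold change of 0.28. CG32751 reached the filter minimum only in the 3 control libraries and had 5 reads in all in dec2P384R, so nothing is read from the count of 2. The eye pigment transporter gene w rose 2.04-fold, from 1.27, 1.88 and 2 FPKM to 4.18, 3.56 and 4.19 FPKM (limma adjusted p = 0.0035). It also serves as a marker on many fly transgenes, and dec2WT held 3.85, 3.82 and 4.02 FPKM. The light-gated channel gene trpl fell 1.54-fold, with its call lost in 4 of the 6 omissions (highest limma adjusted p 0.107, without driver control replicate 3), and the other 12 phototransduction genes did not pass. Among 10 rhodopsin and chromophore genes none passed in limma or edgeR, DESeq2 called 1, 2 had an unadjusted limma p under 0.05, and ninaG passed with the replicate block (0.0385).

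Of 50 seminal fluid genes Acp54A1 rose 2.55-fold, Sfp24Ba fell 2.27-fold and Sfp24Bd fell 1.76-fold (6% called, against 2.8% of all genes tested). Acp54A1 and Sfp24Bd lost their calls in 4 and 5 of the 6 omissions (highest limma adjusted p 0.108, for Acp54A1 without driver control replicate 2), and the block added Sfp93F, lower (0.00318). None of the 21 testis genes passed in limma, edgeR or DESeq2, and 0 had an unadjusted limma p under 0.05. Among 49 cuticle proteins TwdlD (4.34-fold) and Cpr49Ag (3.26-fold) rose and Cpr11B fell 1.78-fold. TwdlD passed the filter only through the dec2P384R and dec2WT libraries. Cpr11B lost its call in 5 omissions (limma adjusted p up to 0.17, without driver control replicate 2) and in edgeR on recovered reads (adjusted p = 0.0538). Cpr72Ec and Lcp1 were added by the block, higher (0.0155 and 0.0474).

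Ilp5, an insulin-like peptide of the brain's insulin-producing cells, was at 3.21, 2.97 and 3.19 FPKM in the control and 4.99, 6.11 and 5.37 FPKM in dec2P384R (1.65-fold higher, limma adjusted p = 0.0182). The other 13 insulin pathway genes did not pass. Ilp5 overlaps CG43897 on the opposite strand over 549 bases, and its call was lost in 3 of the 6 omissions (highest limma adjusted p 0.0847, without driver control replicate 2), in edgeR on recovered reads (adjusted p = 0.0773) and in DESeq2 (0.106). With the replicate block ImpL2, a secreted binder of insulin-like peptides, passed with a log2 fold change of −0.56 (limma adjusted p = 0.0334). Lsd-1, a perilipin of lipid droplets, rose 1.41-fold, with its call lost in 5 of the 6 omissions (highest limma adjusted p 0.159, without driver control replicate 3). Lsd-2, bmm, Hsl, AkhR and mdy had log2 fold changes of −0.16, 0.16, −0.23, −0.04 and 0.41, and mdy passed with the block (0.0471). The juvenile hormone epoxide hydrolase gene Jheh1 fell 1.63-fold, with the call lost without any 1 of the driver control libraries (limma adjusted p up to 0.0832, without replicate 2). The proteasome list of 48 held 1 rise, the alpha subunit paralog CG30382 (1.76-fold, 0.0109), lost without driver control replicate 3 (0.0579). That is 2.08% of the list, against 2.8% of all genes tested.

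Clock and sleep genes held 0 calls in limma and edgeR. The 8 genes of the clock's transcription loop had a median log2 fold change of −0.07, within −0.25 and 0.16. The feedback repressor genes per and tim were at −0.25 (limma adjusted p = 0.565) and −0.08 (0.903), and the activator genes Clk and cyc at −0.04 and 0.16. The repressor gene cwo was at −0.04, vri at −0.10, Pdp1 at −0.06 and the photoreceptor gene cry at −0.16. All libraries were taken at 1 time of day. The hairy-type repressor gene h, a bHLH relative of Dec2, was at 32.5, 37.8 and 31.5 FPKM in the control and 38.8, 36.1 and 36.8 FPKM in dec2P384R, and the groups overlapped. The lists of potassium channels of sleep, dopamine, octopamine, GABA, cholinergic and synaptic genes, and 27 neuropeptides, had 0 calls in limma and edgeR as well. Of the 84 genes of these lists DESeq2 called 1, and 6 had an unadjusted limma p under 0.05; in the clock loop both counts were 0.

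Energy and growth genes also held 0 calls in limma and edgeR: 39 genes of respiratory complex I (median −0.10), 41 of complexes III to V (−0.07), 15 of the tricarboxylic acid cycle (−0.20), 14 of glycolysis (−0.21), 91 of the cytosolic ribosome (−0.03) and 20 of autophagy (0.04). Of these 220 genes DESeq2 called 2, and 19 had an unadjusted limma p under 0.05. The replicate block brought past the test kdn, citrate synthase, lower by 0.42 on the log2 scale (limma adjusted p = 0.0491), mRpL23 of 72 mitochondrial ribosomal genes, lower by 0.45 (0.0372), and Hsp26 of 6 small heat shock genes, higher by 0.49 (0.0315). A p that misses the threshold does not show that these genes were at equal levels.

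Many of the largest changes were in genes known by number alone. CG32726 was at 2.13, 2.07 and 2.05 FPKM in the control and 33.9, 30.9 and 25.8 FPKM in dec2P384R (11.8-fold higher, limma adjusted p = 5.4e-06). CG31832 rose 8.80-fold, from 4.88, 3.3 and 6.11 FPKM to 37.8, 49.3 and 47.8 FPKM; it lies within GABA-B-R1 on the opposite strand, which had a log2 fold change of −0.05. CG31683 fell from 3.32, 3.27 and 5.98 FPKM to 0.021, 0 and 0.105 FPKM, and CG2772 from 12.2, 8.12 and 9.87 FPKM to 1.18, 1.01 and 0.8 FPKM. CG31683 passed the filter only through the control libraries, where it was high, so nothing is read from its Illumina call. For all 4 genes the groups lay far apart, and the dec2WT libraries sat on the side of dec2P384R.
CG6961 rose 4.70-fold and, with CG18259 and CR6900, formed a run of 3 consecutive called genes on chromosome X between 18781265 and 18788210. CR6900 overlaps CG6961 by 69 bases and lost its call in 5 of the 6 omissions (highest limma adjusted p 0.13, without driver control replicate 3). It also lost it in edgeR on recovered reads (adjusted p = 0.0814), with a pseudocount of 0.1 (limma adjusted p = 0.0685) and without the filter (0.0694), which ends the run of 3. CG18259 lost its own without driver control replicate 3 (0.0539).

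Among 11784 protein-coding genes 264 were called (2.24%), against 77 of 1220 noncoding RNA genes (6.31%) and 23 of 149 models that carry no reference identifier (15.4%). Several of the called noncoding genes and models were nearly without reads in the lower group. These entered the test only through other libraries, so nothing is read from the differences between these shares. Between chromosome arms the share ran from 2.35% on 3L to 3.16% on 2L, and none of 98 genes on chromosome 4, 23 on Y and 29 of the mitochondrion passed in limma, edgeR or DESeq2, with 6 of them at an unadjusted limma p under 0.05. Other falls under the naming rule were the chromatin remodelling gene Acf (2.42-fold), ush, a zinc finger cofactor of GATA factors (2.08-fold), the formin gene Frl (2.04-fold) and APC7 of the anaphase-promoting complex (2.04-fold). The Rab GTPase gene RabX2 rose 3.29-fold. Acf was tight within groups, at 3.08, 3.16 and 3.16 FPKM in the control and 1.01, 0.799 and 1.23 FPKM in dec2P384R. APC7 lost its call in 3 omissions (limma adjusted p up to 0.0709, without driver control replicate 3).

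The direct test of dec2P384R against dec2WT asked which genes differed between the transgene lines. Any difference of insertion or stock background between these lines cannot be told apart from the mutation. It called 105 of 13418 genes (0.783%), 67 higher (0.499%) and 38 lower (0.283%) in dec2P384R. Of the 376 genes called against the driver control, 47 also differed from dec2WT (12.5%). Of these, 42 were higher than both other genotypes (26) or lower than both (16), and 5 lay between them. Both tests share the dec2P384R libraries and one estimate of the spread. The overlap and the split are therefore partly built in, and nothing is read from them. The count of 105 was 56, 57 and 69 without dec2WT replicate 2, 3 or 1, and without dec2P384R replicate 2 it was 65 with the balance turned, 27 higher and 38 lower.

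MtnB showed the widest gap, at 24.3, 25.5 and 46 FPKM in dec2P384R and 1.34, 1.24 and 1.12 FPKM in dec2WT (log2 4.16 ± 0.25 SE, limma adjusted p = 4.16e-05), with the control between them. IM1 was at 73.4, 85.1 and 53.2 FPKM in dec2WT, below all dec2P384R libraries (log2 difference 1.65, limma adjusted p = 0.00113). CG13324 was at 25.6, 22.5 and 27.1 FPKM in dec2P384R, against 4.91, 4 and 4.21 FPKM in the control and 3.99, 6.07 and 4.13 FPKM in dec2WT (difference from dec2WT 2.31, limma adjusted p = 5.65e-05). For these 3 genes every dec2P384R library lay above every library of both other genotypes.
MtnD, Kmn1 and Mks1 were also higher than in dec2WT, by 1.29, 1.81 and 1.36 on the log2 scale. Mks1 reached the filter minimum only in the 3 dec2P384R libraries, so it had to differ to be tested and its calls support nothing. Kmn1, a kinetochore gene, was at 13.4, 5.51 and 4.06 FPKM and overlaps CG11699 on the opposite strand. CG11699 was also called higher, but reached the filter minimum only in the 3 dec2P384R libraries, so nothing is read from its Illumina call. On Nanopore CG11699 had 307, 200 and 269 estimated counts in the control and did not pass (log2 fold change 0.43, edgeR adjusted p = 0.383). Against dec2WT the calls of MtnD, Kmn1 and Mks1 were lost in several omissions (limma adjusted p up to 0.126, 0.113 and 0.109). Against the control Kmn1 lost its call in 4 (up to 0.0958, without driver control replicate 2) and Mks1 without driver control replicate 3 (0.062).

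Lower than in both other genotypes were CG3397 and CG33665. Both were under the filter minimum in every dec2P384R library. They entered the test only through libraries where they were high, so nothing is read from their Illumina calls. CG3397 (chromosome 3R, 11983098 to 11984541) was at 5.17, 3.35 and 3.92 FPKM in the control, 2.58, 1.44 and 2.88 FPKM in dec2WT and 0.0717, 0 and 0 FPKM in dec2P384R (log2 difference from dec2WT −2.38, limma adjusted p = 0.000613). CG12224, the gene at 11980704 to 11982622 on the same arm, was at 43.9, 42.3 and 76.5 FPKM, 20.4, 24.1 and 26.1 FPKM, and 5.36, 7.11 and 6.02 FPKM in the same order (limma adjusted p = 0.00165 against dec2WT). Both genes stepped down from control to dec2WT to dec2P384R without overlap. The step from control to dec2WT passed for CG12224 (log2 fold change −1.14, limma adjusted p = 0.0149) but not for CG3397 (−0.75, 0.143). CG33665 fell from 5.2, 3.96 and 3.77 FPKM in the control to 0.13, 0 and 0 FPKM, with 3.3, 2.69 and 1 FPKM in dec2WT (difference −2.29, limma adjusted p = 0.0045).

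Ugt86Dd was at 68.8, 103 and 106 FPKM in dec2WT and so differed from dec2P384R by −1.56 on the log2 scale (limma adjusted p = 0.00686), as did Cyp6a2 by −2.04 (4.16e-05), Oatp58Db by −1.06 (0.0119), plh by −1.11 (0.0165), gammaTry by −1.21 (0.0145) and deltaTry by −1.02 (0.0106). Cyp6a2 was higher in dec2WT than in the control, at 112, 118 and 98.8 FPKM against 42.3, 47.2 and 37.8 FPKM, and lowest in dec2P384R. Cyp6a8 lay between the genotypes, at 40.1, 68.6 and 56.9 FPKM in dec2P384R, 27.5, 21.5 and 21.2 FPKM in dec2WT and 107, 120 and 99.6 FPKM in the control (difference from dec2WT 1.20, limma adjusted p = 0.0111). In omissions of a dec2WT or dec2P384R library, plh, Oatp58Db, gammaTry, Cyp6a8 and deltaTry lost their calls against dec2WT (limma adjusted p up to 0.0782, 0.0564, 0.0764, 0.0612 and 0.0564). Against the control, plh also lost its call in 4 omissions (up to 0.116, without driver control replicate 2). Chosen after its values were seen, the alcohol dehydrogenase gene Adh was at 3.87, 4.27 and 4.18 FPKM in dec2P384R, below 10.6, 7.2 and 9.04 FPKM in the control and 7.5, 8.1 and 9.13 FPKM in dec2WT. On Nanopore Adh did not pass against the control (log2 fold change −0.04, edgeR adjusted p = 0.968). Its Nanopore estimated counts in the control were 23376, 28856 and 24286, a high level beside its low Illumina FPKM. The Illumina fall of Adh is therefore uncertain, and what separates the platforms at this gene was not tested.

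**Figure D4:**
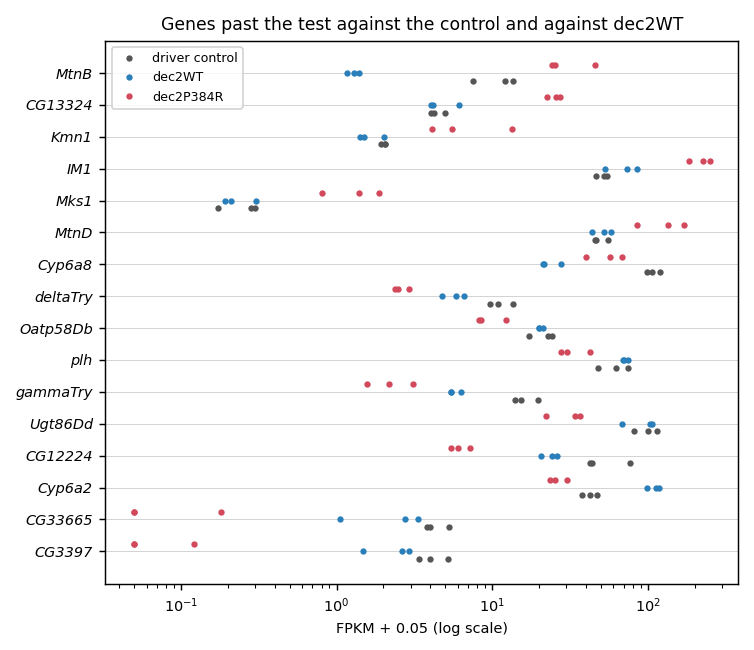
FPKM + 0.05 (x axis, log scale) in each driver control (grey), dec2WT (blue) and dec2P384R (red) Illumina library for genes that passed both tests. MtnB, CG13324 and IM1 are highest and CG3397 and CG33665 lowest in the dec2P384R libraries.

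Nanopore libraries of the same 2 genotypes called 54 of 11393 genes in edgeR (0.474%), 25 higher (0.219%) and 29 lower (0.255%). Of the 376 Illumina calls, 233 had a Nanopore value and 207 of these had the same sign. The share of like signs over all genes was not computed, so nothing is read from the 207. Genes called on both platforms in the same direction numbered 37, 16 higher and 21 lower, which is 9.84% of the Illumina calls and 68.5% of the Nanopore calls. The labels do not say whether both platforms used the same RNA extracts, so the 37 cannot be taken as independent replication. mthl8 had no Nanopore counts in the control and 6.76, 10.1 and 8.78 CPM (counts scaled to library size) in dec2P384R, at least 10.9-fold higher against 3 counts per library. CG31832 was at 2.17, 2.78 and 3.44 CPM against 25.5, 31.4 and 14.4 CPM (edgeR adjusted p = 0.0021). CG10725, PGRP-SC2, CG32726 and CG6961 were higher, and gammaTry, CG30025, CG12224, CG3397, LysP, CG17322 and Ugt86Dd lower, on both platforms.

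MtnC differed between the platforms. On Nanopore it was at 400, 410 and 237 CPM in the control and 255.2, 348.3 and 392 CPM in dec2P384R, and the groups overlapped (log2 fold change −0.16). The control libraries, near 3 FPKM on Illumina, were thus as high as dec2P384R on Nanopore. What separates the platforms at this gene was not tested. IM1 had a Nanopore log2 fold change of −0.20, MtnD of 0.30 and MtnB of 0.65, none past the test. The antimicrobial peptide list had a Nanopore median of −0.40 over 14 genes, against 0.78 over 18 on Illumina. CG45489, chosen after its values were seen, was called in opposite directions, with log2 fold changes of 1.65 on Illumina and −5.10 on Nanopore.

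**Figure D5:**
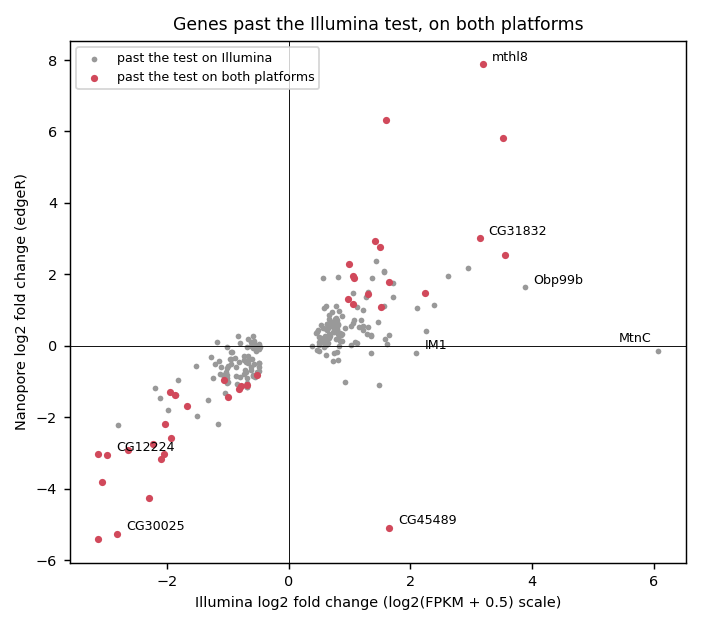
Nanopore log2 fold change in edgeR (y axis) against Illumina log2 fold change (x axis) for the 233 Illumina-called genes with a Nanopore value. Red points passed on both platforms; MtnC lies at 6.08 on Illumina and −0.16 on Nanopore, and CG45489 passed in opposite directions.

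The authors' deposited table of this comparison lists 244 genes, 147 higher and 97 lower in dec2P384R. Of these, 196 (80.3%) were among the 376 called here. Of the 198 genes called here with at least a 2-fold difference, 174 are in the authors' deposited table.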

How the data were processed

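RNA from whole flies was polyA-enriched and sequenced on Illumina as paired reads of 150 nt; Nanopore libraries were direct cDNA. Tools listed in the submitters' processing notes, with no roles, are DESeq2, Salmon, minimap2, HISAT2 and featureCounts 1.5.0-p3; the genome build and strand setting are not given in the sources used here. The authors deposited Illumina FPKM values for 17972 genes, of which 219 are models without an identifier, and Nanopore estimated counts, of which 55.1% are not whole. The authors also deposited log2 fold changes and adjusted p-values (p-values of their own test) of their comparisons, and their count columns gave the constant that turns FPKM into reads. Multiplying FPKM by length and that constant gave whole reads for 100% of values within 1e-06. Another 42 columns of values per library were not used. One Illumina column spells the mutant with exchanged digits and was used as dec2P384R replicate 2.

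For Illumina, limma 3.58.1 in R 4.3.3 (empirical Bayes with a trend) compared log2(FPKM + 0.5) over genes that reached 0.5 FPKM in 3 or more of the 9 libraries, all of which entered the fit. For Nanopore, edgeR 4.0.16 (quasi-likelihood test, TMM scaling) was run on the estimated counts after rounding. All tests are two-sided, use Benjamini-Hochberg adjustment and take 0.05 as threshold. Scripts were checked on simulated data. edgeR and DESeq2 1.42.0 on recovered reads were alternatives. Positions are those of the deposited table. Bounds against 0 use a floor of 3 counts per library and cover counting error only.

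Same-numbered driver control and dec2P384R Illumina libraries deviated together across genes (r = 0.256, 0.116 and 0.251). Pairs of unlike number were at −0.00121 or below, so replicate numbers were taken to pair these groups. Deviations were taken from group means and cancel out within a group. The unlike pairs are therefore no evidence apart from the same-number pairs. The pairing comes from these correlations, not from the labels. The main test used genotype alone, so its adjusted p-values and its 376 calls leave the pairing out. With the replicate number as a block, run as an alternative, the count was 504. The block fit held all 9 libraries and so blocked dec2WT by number as well. Same-number correlations of control and dec2WT were 0.076, −0.0293 and 0.18, and a pair of unlike number reached 0.136. The 504 and the calls added by the block therefore do not rest on the pairing of control and dec2P384R alone. The labels call the libraries biological replicates.

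Gene lists and the comparison were chosen with earlier results of these data known. Named genes were the 15 largest rises and 15 largest falls with a symbol among called genes with a mean of at least 2 FPKM and no overlap, 6 and 6 with CG numbers, up to 4 called members per list, all members of lists of up to 6 genes with a call, 6 and 6 genes also differing from dec2WT, runs of at least 3 neighbouring calls, and 8 clock genes, h and w.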

Additional observations from a re-analysis of the deposited data

How the results depend on the processing

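The 376 calls against the driver control became 363 and 372 with pseudocounts of 0.1 and 1, 287 with the 6 libraries alone, 504 with the replicate block (304 higher, 200 lower), 410 in edgeR and 562 in DESeq2 on recovered reads; leaving out a library gave 179 to 328. The replicate block changed no other call of a named gene than those given above. Counts of called list members (62) ran from 35 to 67 and of called named genes (78) from 50 to 62 over the omissions, and DESeq2 called 102 list members. Against dec2WT the 105 calls were 186 in DESeq2, 130 with the replicate block and 56 to 90 over the omissions. Same-number correlations of dec2WT and dec2P384R were 0.236, 0.04 and 0.209. Libraries of unlike number reached 0.0822, so the numbers were not taken to pair these groups. On Nanopore the 54 calls were 103 in DESeq2, 38 with the replicate block (correlations −0.132, 0.0932 and −0.0688, no pairing) and 27 to 70 over the omissions. The causes were not tested. Further calls against the control were lost with the 6 libraries alone (Lsd-1, Jheh1, CecA1, trpl, plh, CG17323, CG15661 and NimC1; limma adjusted p 0.0536 to 0.133) and without the filter on low genes (CG15067, CG17323, CG15661, Kmn1 and Cpr11B; 0.0542 to 0.0719). The direction of 9 uncalled genes turned in at least 1 omission, and their log2 fold changes ranged as follows: cry (−0.25 to 0.016), CG43222 (−0.00784 to 0.34), AkhR (−0.14 to 0.093), vri (−0.35 to 0.0204), Hsl (−0.37 to 0.019), cwo (−0.11 to 0.084), Pdp1 (−0.19 to 0.13), tim (−0.26 to 0.13) and Clk (−0.14 to 0.049). Of the Illumina calls 143 had no Nanopore value; their median level on Illumina was 1.32 FPKM, against 11.6 FPKM for the other calls. With 3 libraries a group, a call missed is not a level shown equal.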
